A study of Bos taurus with 2 samples.

Results

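A stretch of 1.1 Mb of the cattle Y chromosome, at 26000001 to 27100000 in the long arm, was described from CpG methylation levels measured in lung DNA on PacBio HiFi and Oxford Nanopore Technologies (ONT) reads. All CpGs of the stretch with at least 10 PacBio reads were taken as its members, which gave 9365 of 974748 CpGs on the chromosome, or 0.961%. None of its CpGs fell below the minimum, because the shallowest had 26 reads and the deepest 74. The stretch was chosen by its low 5 kb bin levels in these same data, so its levels are a description and were not tested. The study used a male fetus of a Wagyu by Charolais cross, and 1 library per platform was analysed here with no treatment or second animal, so no test across samples was possible. Positions are given for chromosome Y of the cattle assembly ARS-UCD2.0 and grow toward the tip of the long arm. The deposited values are percentages per CpG on PacBio, with the read count beside them, and percentages per strand on ONT, whose depth is unknown. The ONT level is the mean of both strand rows.

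Methylation of cytosine in CpG pairs is copied to the new strand at each cell division, and most CpGs of a mammalian somatic genome carry it, with gene promoters and other open elements as the usual exceptions. The long arm of the cattle Y belongs to the male-specific region, which does not recombine with the X chromosome and is built from many near-identical copies of large blocks, known as amplicons. Such blocks often sit as palindromes, in which a copy runs in the reverse direction of its partner, and they carry gene families best known from the testis, among them HSFY and TSPY.

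The label of a low-methylation domain held for parts of the stretch but not for its whole length. The methylation level averaged 43.5% on PacBio and 36.0% on ONT over its CpGs, against 51.3% and 43.4% over the 302191 other CpGs of the long arm beyond 24 Mb. Among 31 windows of 1.1 Mb there, counting the stretch itself, it was the lowest on both platforms, and the other 30 windows had between 47.8% and 63.9% on PacBio and between 40.2% and 53.8% on ONT. The neighbouring window on the centromere side stood at 59.9% and 51.4%, and the one on the distal side at 47.8% and 40.2%. In bins of 5 kb the PacBio level swung from 12.5% at 26515001 to 26520000 to 68.0% at 26895001 to 26900000. The ONT level swung from 11.8% at 26505001 to 26510000 to 54.9% at 26590001 to 26595000. Low bins therefore lay among bins at the usual level of the arm.

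A bin was called low when its mean was under 0.5 times the median bin of the centromere on the same platform, that is under 40.2% on PacBio and under 27.5% on ONT. On PacBio 99 of the 220 bins were low, or 45.0%, against 15.3% of all bins of the chromosome and 21.8% of the 6865 other bins of the long arm. On ONT 62 bins were low, or 28.2%, against 4.98% of the chromosome and 6.28% of the arm. Both platforms called 61 of these bins. The share of bins low on both was not counted elsewhere. It can be no higher than the ONT share, which was 4.98% of the chromosome and 6.28% of the arm. Just inside the threshold lay bins at 40.18% on PacBio and 27.505% on ONT, and just outside it bins at 40.52% and 27.64%.

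Runs of at least 4 low bins, joined over gaps of at most 2 bins, were called dips. PacBio had 5 dips in the stretch, which made up 265 of the 515 kb of dips it had on the chromosome. ONT had 2 dips, which made up 130 of its 150 kb. The counts depended on the rule. PacBio had 10 dips of 575 kb with a factor of 0.6, 11 of 405 kb with runs of at least 2 bins, 3 of 140 kb with a factor of 0.4 and 3 of 176 kb in bins of 2 kb, and with 0.5 times the median bin of the pseudoautosomal region as threshold ONT had 5 dips of 320 kb in the stretch. The longest PacBio dip, of 140 kb at 26410001 to 26550000, contained an ONT dip of 105 kb at 26445001 to 26550000, called the core here. The 21 core bins ran from 12.5% to 32.97% on PacBio, with a median of 20.1%, and from 11.8% to 27.0% on ONT, with a median of 17.4%. The 35 kb of the long dip before the core, its shoulder, had 39.98% on PacBio and 32.2% on ONT over 282 CpGs, and held both of the bins of that dip that were not low. All 21 core bins lay below both thresholds, as did the 5 bins from 26335001 to 26360000 and other bins of the 61, among them those from 26420001 to 26435000 in the shoulder. The core was the longest such run. Its length on ONT depended on the rule, since the longest ONT dip was 54 kb in bins of 2 kb and 50 kb with a factor of 0.4.

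**Figure D1:**
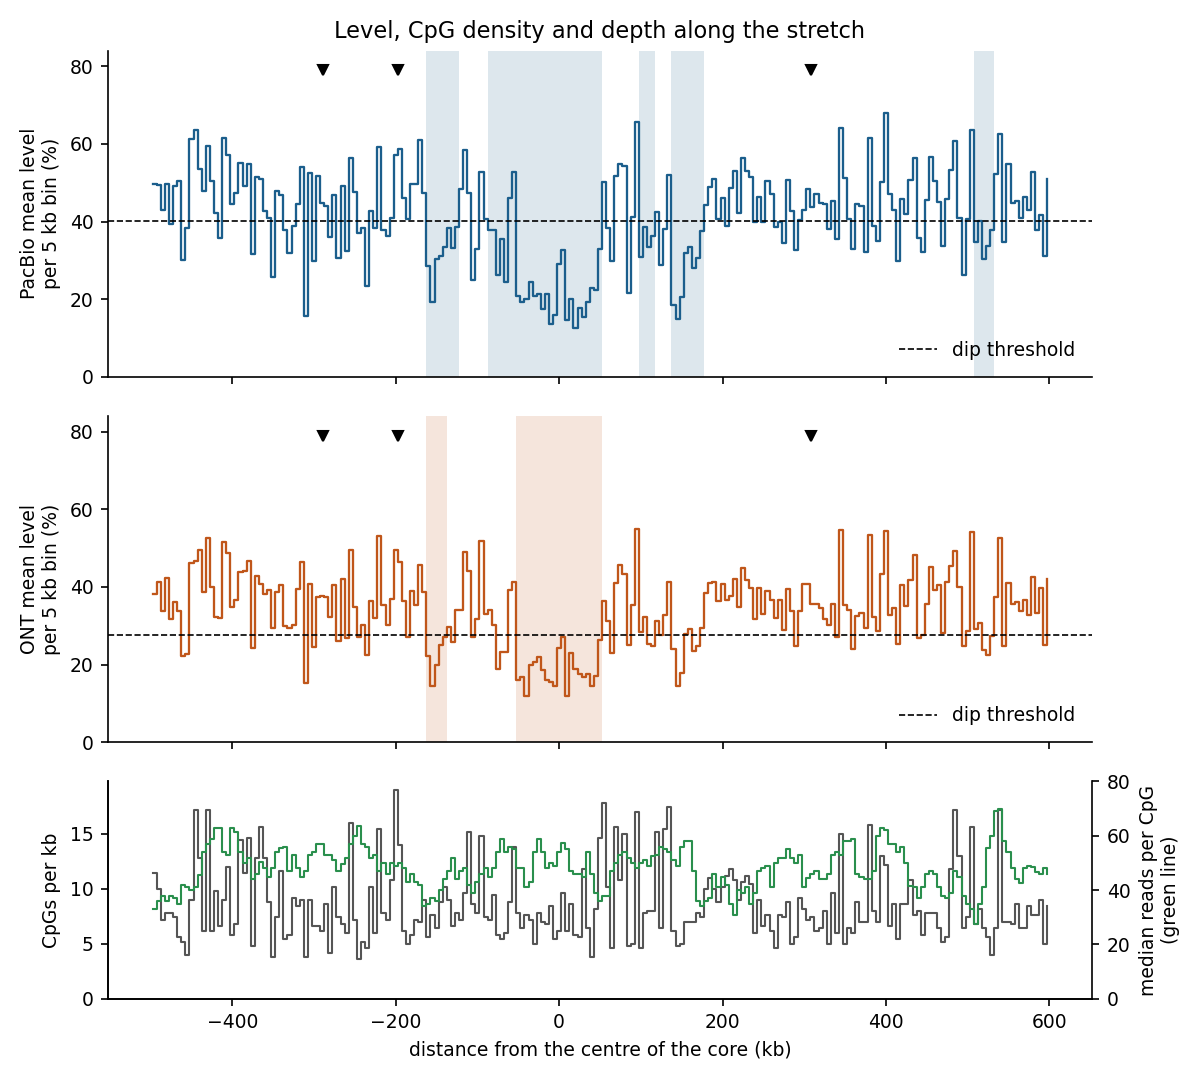
Mean methylation level per 5 kb bin on PacBio (top) and ONT (middle), and CpGs per kb with the median PacBio depth (bottom), against the distance from the centre of the core; shading marks dips, dashed lines the thresholds of 40.2% and 27.5%, and triangles the 3 annotated genes. The core is the longest run of low bins on both platforms, with no matching trough in depth.

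The other dips were shorter and shallower. The first PacBio dip spanned 40 kb at 26335001 to 26375000, with bins from 19.2% to 38.6%, and its first 25 kb were also a dip on ONT, with bins from 14.3% to 27.1%. The third spanned 20 kb at 26595001 to 26615000, with bins from 30.9% to 38.5% on PacBio and from 24.9% to 32.2% on ONT. The fourth spanned 40 kb at 26635001 to 26675000 and reached 14.8% on PacBio and 14.5% on ONT in its lowest bin. The fifth lay apart from these, at 27005001 to 27030000, with bins from 30.3% to 40.2% on PacBio and from 22.5% to 30.7% on ONT. The last 3 of these dips had fewer than 4 consecutive low bins on ONT.

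The edges of the core were then placed between single CpGs, as the split that gave the least squared error of a step within 15 kb of the dip's end. On the left PacBio put the edge between 26440984 and 26441023 and ONT between 26440888 and 26440920, so that the platforms lay 96 bp apart. Over 5 kb on either side the PacBio level stepped from 57.6% in 80 CpGs to 30.8% in 30 CpGs, and the ONT level from 47.3% to 23.7%. On the right the edge lay between 26547323 and 26547340 on PacBio and between 26545650 and 26546053 on ONT, 1673 bp apart. The step there was smaller, from 25.7% inside to 44.5% outside on PacBio and from 17.0% to 27.1% on ONT. The 5 kb outside held 91 CpGs on the right and 80 on the left for the PacBio edges. With the search kept within 10 kb the right edges moved to 26550220 on PacBio and 26550501 on ONT, 281 bp apart, while the left edges did not move. As fitted, the step was thus larger on the left, and its position did not depend on the search width tried, as that on the right did. The left edges lay in a bin dense in CpGs, at 26440001 to 26445000, with 69 CpGs, 52.7% on PacBio and 41.2% on ONT. The next bin outward had 44 CpGs and 46.2% on PacBio. Those from 26420001 to 26435000 had 27 to 30 CpGs each, with 24.5% to 35.5% on PacBio and 18.8% to 23.2% on ONT. The fitted step on the left thus lay at the end of a group of close CpGs, and is not read here as a sharp boundary. Whether that step is also larger, or its position the same, at equal CpG spacing was not tested. Inside the core the highest bins besides the last, which had 32.97% on PacBio and 26.3% on ONT, were those from 26495001 to 26505000, with 29.2% and 32.5% on PacBio and 24.1% and 27.0% on ONT.

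**Figure D2:**
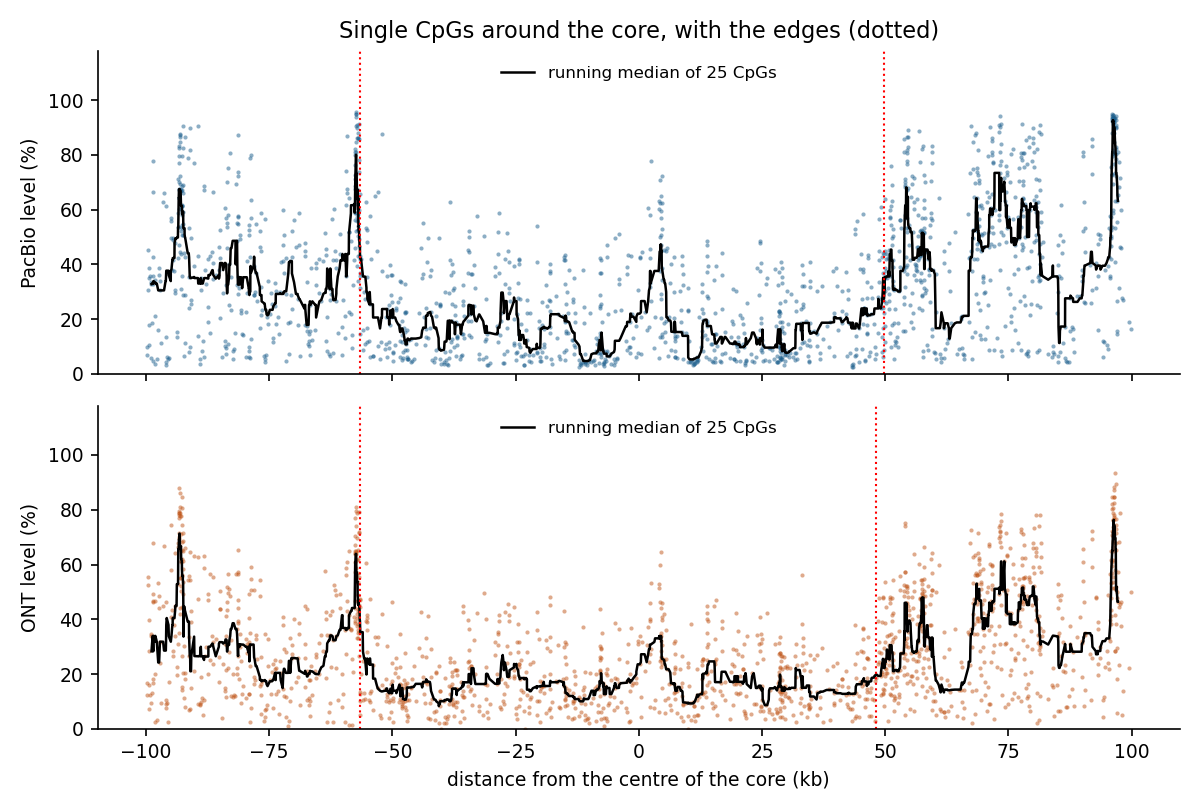
Methylation level of each CpG within 100 kb of the centre of the core on PacBio (top) and ONT (bottom), with a running median of 25 CpGs (black) and the fitted edges (red dotted lines). The left edges of the platforms lie 96 bp apart and the right edges, as fitted within 15 kb, 1673 bp, and the running median also rises close to the centre of the core.

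The edges of the other dips were placed unevenly. The left edge of the fifth dip fell between 27002270 and 27002302 on both platforms, with steps of 30.9 (PacBio) and 26.1 points (ONT). The left edges of the fourth lay 516 bp apart. The other edges differed between the platforms by up to 12123 bp, and for the third dip the PacBio step ran the wrong way, with 43.0% inside against 24.3% outside on its left. No boundary is given for that dip beyond its bins.

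Of the single CpGs of the core, 31.9% were below 10% on PacBio and 24.8% on ONT, against 4.64% and 4.31% of all CpGs on the chromosome. In the rest of the long arm 1.53% lay below 5% and 7.57% from 5% to 10% on PacBio, and 3.09% and 5.50% on ONT. The lowest PacBio score on the chromosome was 1.7%, so the score does not reach 0. Of the 781 core CpGs, 55.3% were below 20% on PacBio and 59.8% on ONT. These shares were 8.53% and 9.91% of all CpGs on the chromosome, and 17.9% and 20.7% in the rest of the long arm. On both platforms 44.6% of the core CpGs were below 20%, against 6.5% of the chromosome, 13.9% of the rest of the long arm and 20.3% of the stretch. Between 20% and 80% lay 44.6% of the core CpGs on PacBio, and above 80% lay 1 CpG, or 0.128%. On ONT no core CpG was above 80%. The median CpG of the core had 17.7% on PacBio, with quartiles of 8% and 32.1%, and 16.5% on ONT. Over the 7434 CpGs of the stretch outside the PacBio dips, 21.3% were below 20% and 14.6% above 80% on PacBio, and the median was 47.8%. The core therefore lacked the upper part of the distribution, which outside the dips reached 96.0%.

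**Figure D3:**
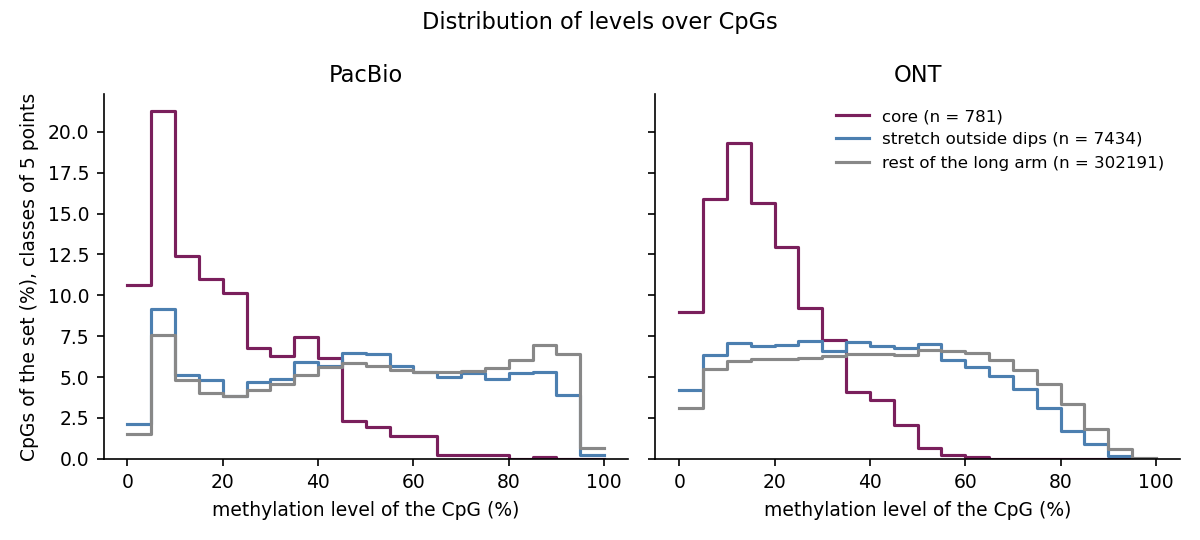
Percent of CpGs in classes of 5 percentage points of methylation level on PacBio (left) and ONT (right), for the core (781 CpGs), the stretch outside the PacBio dips (7434) and the rest of the long arm beyond 24 Mb (302191). The core is piled up below 20% and has 1 CpG above 80% on PacBio and none on ONT.

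Within the stretch, the longest unbroken run of CpGs below 20% on PacBio lay in the core, with 14 CpGs at 26507661 to 26509546. These CpGs averaged 5.07% on PacBio, with a highest value of 12.1%, and 11.1% on ONT, where 12 of the 14 were below 20%. Of the runs with 13 CpGs, 2 lay in the core as well, at 26450226 to 26452234 and 26487894 to 26489559, and 1 in the fourth dip, at 26644271 to 26646963, where the mean was 4.85% on PacBio and 8.91% on ONT. The lowest PacBio CpG of the core, at 26540923, had a level of 2.4%, with 1 of 43 reads estimated as modified and a Wilson 95% interval from 0.412% to 12.1%. Its highest, at 26445405, had 87.6%, with 44 of 50 reads and an interval from 76.2% to 94.4%, but 41.8% on ONT. A typical core CpG with 48 reads had 8 estimated as modified, with an interval from 8.70% to 29.6%. Such intervals cover counting error only.

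The core held somewhat fewer CpGs per kb than its surroundings at the same depth. The stretch held 8.51 CpGs per kb, against 8.80 in the rest of the arm, and 26 of the 30 other windows held more. The core held 7.44 CpGs per kb, the PacBio dips between 6.20 and 7.75, and the stretch outside them 8.90. Bins with fewer CpGs were lower, with a Pearson's r of 0.57 between level and CpGs per bin on PacBio and 0.63 on ONT over 220 bins. These bins share a library and neighbouring sequence, and the values are descriptions. The median PacBio depth was 48 reads in the stretch and in the core, 46 in the rest of the arm and 38 in the fifth dip, the lowest of the PacBio dips. Across bins depth and level had an r of -0.0019 on PacBio and 0.0022 on ONT. Core CpGs with 35 to 45 reads had 23.1% on PacBio, those with 46 to 50 reads 18.8% and those with 51 to 62 reads 22.02%, so the core was low at every depth it had.

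Because sparse CpGs were lower across the arm, levels were compared at equal distance to the nearest CpG. In the rest of the long arm the PacBio level fell from 71.3% at CpGs within 10 bp of another to 33.1% at CpGs over 200 bp from any other, and in the stretch outside the dips it fell from 66.1% to 29.6%. In the core the same classes had 27.1% and 14.6%, and on ONT 24.4% and 15.1%. The core was the lowest in each of the 6 classes on both platforms, and its gap to the stretch outside the dips was widest for CpGs within 10 bp, at 39.0 points on PacBio and 32.4 points on ONT. Weighted to the spacings of the core, the stretch outside the dips would have 45.9% on PacBio and 37.8% on ONT, against 21.4% and 19.0% in the core. The spacing thus moved the level outside the dips from 47.4% to 45.9% on PacBio and from 39.1% to 37.8% on ONT, and the difference from the core was then 24.6 and 18.8 points.

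**Figure D4:**
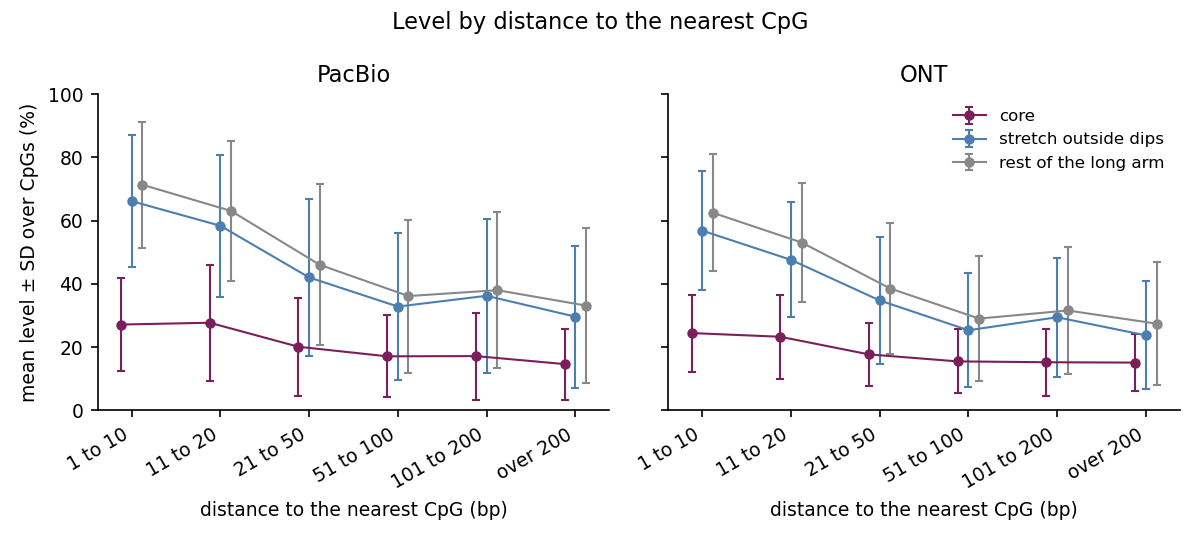
Mean methylation level (%) with the SD over CpGs (bars) by distance to the nearest CpG on PacBio (left) and ONT (right), for the core, the stretch outside the PacBio dips and the rest of the long arm. The close CpGs that stand at 66.1% outside the dips on PacBio stand at 27.1% in the core.

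Much of the stretch had mirrored copies within it, as did other parts of the arm. Copies were found as words of 6 identical consecutive CpG spacings, that is 7 CpGs, read in the same or in the reverse direction. By this measure 6698 of the 9365 CpGs, or 71.5%, had a reversed copy within the stretch, and 2341, or 24.997%, had a forward copy. In the other 30 windows of 1.1 Mb the share with a reversed copy in the same window ran from 3.95% to 89.1%, with a median of 44.2%, and was higher than in the stretch in 5. The share with a forward copy ran from 0% to 76.5% there, with a median of 35.9%, and was higher than in the stretch in 22. Of the 4476 reversed pairs 4204 lay on 4 mirror axes centred at 26341917, 26640510, 26705336 and 26939134, and 272 lay elsewhere. The largest, at 26640510, paired 1944 CpGs of its arms over 905 kb. Recurrence at a fixed distance was also counted, over a limited range of distances. The most frequent distance between CpGs of the core, 37 bp, had 18 pairs against a median of 5. No known tandem array was counted for scale, so whether the core holds one was not tested. Matching rests on CpG positions alone, and how alike the copies are in sequence, or how reads were shared between them, was not tested.

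These copies gave a comparison within the stretch of CpGs in like surroundings. Of the core, 305 CpGs had a partner on the first axis, where the core stood at 21.6% and its copy, at 26134036 to 26236604, at 49.5% on PacBio. On ONT the values were 19.0% and 41.9%. On the axis at 26640510, 382 core CpGs had 20.7% against 43.0% in the copy at 26767650 to 26834823 on PacBio, and 18.6% against 34.8% on ONT. Mean depth was 46.6 reads in the core and 51.5 in its copy on the first axis, and 50.2 and 48.2 on the other. The core was the lower copy at 89.5% and 86.6% of these CpGs on PacBio. Where both partners of the axis at 26640510 lay outside the dips, the left minus the right partner averaged -1.87 points on PacBio and -0.543 points on ONT over 1039 pairs. Single pairs there differed by a mean absolute 11.1 points on PacBio and 7.33 points on ONT. For the core on that axis these values were 24.1 and 18.4 points. The small mean difference did not hold on every axis, since on the first axis the left partner was 6.44 points higher on PacBio and 5.47 points higher on ONT over 789 pairs. On the axis at 26705336 the left minus the right partner averaged -5.73 points on PacBio and -0.357 points on ONT over 292 pairs outside the dips, and on the axis at 26939134 it averaged 0.514 and -0.0927 points over 457 pairs.

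The shorter dips also lay below their mirrored copies, by less than the core did. The dips and the core were called for low bins, and the copies compared with them lay outside any PacBio dip. These differences are therefore descriptions and no test. The first had 33.04% against 44.4% on PacBio and 25.7% against 37.3% on ONT over 239 pairs. The fourth had 32.7% against 45.2% and 26.9% against 36.8% over 180 pairs on the axis at 26705336, where it is the left partner, and 40.8% against 55.7% and 31.9% against 43.998% over 29 pairs on the first axis. The third was lower by 10.5 points on PacBio and 12.5 points on ONT over 51 pairs. The fifth differed least on the axis at 26640510, with 39.6% against 41.6% on PacBio and 28.3% against 33.5% on ONT over 72 pairs, and on the axis at 26939134 it had 41.1% against 48.1% on PacBio and 30.6% against 37.1% on ONT.

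Copies outside the stretch were then compared in the same way. Of the 781 core CpGs, 605 had at least 1 copy elsewhere on the chromosome, with a median of 35 copies. The core averaged 21.7% at these CpGs and the copies 47.9% on PacBio, and 19.4% and 41.2% on ONT, with a mean depth of 47.3 reads in the core and 47.2 in the copies. Grouped into single copies with at least 50 matched CpGs, there were 134 copies of parts of the core, 72 forward and 62 reversed, of which 2 lay wholly in the stretch and 1 reached across its distal end, at 27044045 to 27109158. They averaged between 43.0% and 59.4% on PacBio, and between 34.8% and 51.1% on ONT. The core was lower than each of the 134 at the matched CpGs, by 12.8 to 35.6 points on PacBio and by 16.2 to 30.3 points on ONT. The core was picked for its low level, so this rank is a description and no test. The CpGs of the stretch outside the dips differed less from their copies elsewhere, with 48.2% against 51.7% on PacBio and 39.97% against 43.8% on ONT over 6120 CpGs.

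The difference from the copies, taken bin by bin, separated the dips of the stretch. Of 217 bins with at least 5 CpGs that had copies elsewhere, 32 lay more than 15 points below them on PacBio and 28 on ONT, a limit set after the profile was seen. These are 14.7% and 12.9% of its bins, against 0.676% on PacBio and 0.522% on ONT over all 31 windows of the arm, the stretch included, each compared with copies outside its own window. The other 30 windows together held 12 such bins on PacBio and 6 on ONT among 6296. The 32 and 28 bins of the stretch all lay between 26335001 and 26670000, a span of 335 kb that held 65 of the 217 bins. They came in 3 groups. The first group held the first 5 bins of the first dip on PacBio, from 26335001 to 26360000. The second held 19 of the 21 core bins on PacBio and 17 on ONT, and the median core bin was 26.7 points below its copies on PacBio and 22.1 points on ONT. The third, on PacBio, ran from the end of the third dip into the fourth, and took in 3 bins outside any dip, at 26615001 to 26630000. The lowest of those 3 bins lay 21.7 points below its copies on PacBio. In the shoulder no bin passed the limit, with differences from -13.4 to -1.27 points on PacBio, and in the fifth dip none did, with differences from -8.08 to 2.71 points. Over its 173 CpGs with copies elsewhere the shoulder had 44.1% against 51.5% in the copies on PacBio and 34.9% against 44.2% on ONT. The fifth dip had 35.1% against 39.3% on PacBio and 27.2% against 32.4% on ONT over 109 CpGs.

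**Figure D5:**
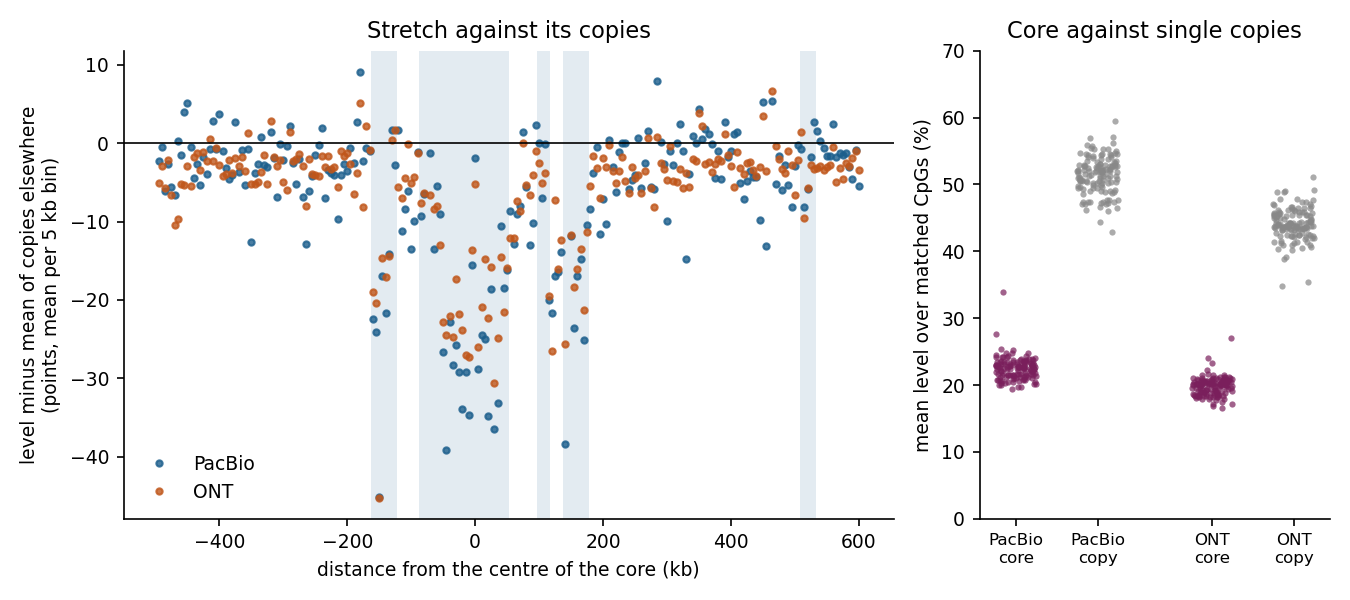
Left, level minus the mean level of copies elsewhere on the chromosome, in percentage points per 5 kb bin, against the distance from the centre of the core, with PacBio dips shaded; right, mean level of the core and of each of its 134 copies over the matched CpGs. Bins over 15 points below their copies lie in 3 groups within 335 kb, and no copy reaches down to the level of the core at its matched CpGs.

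The platforms gave the same profile at different levels. Across the 9365 CpGs Pearson's r was 0.87, and across the 220 bins it was 0.95. Within the core it was 0.68 over 781 CpGs, where levels span a narrower range. ONT was the lower platform, and the difference ONT minus PacBio averaged -7.56 points in the stretch and -2.39 points in the core. The strand rows of ONT differed by a mean absolute 10.6 points per CpG in the stretch and 8.31 points in the core, while the lower-position minus the higher-position row averaged -1.05 points in both. Of the ONT rows in the stretch, 323 of 18730, or 1.72%, were exactly 0, and whether these are measured values or missing calls is not known.

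The annotation placed 3 genes in the stretch and none in any dip. LOC132344667, a protein-coding gene at 26207803 to 26209609 that the study assigns to the HSFY family of heat shock transcription factor relatives, had 42.7% ± 23.3 on PacBio and 34.5% ± 18.1 on ONT (SD over 27 CpGs) within 1 kb of its ends. LOC132344669, of the same family, at 26805161 to 26806920, had 46.8% ± 21.3 and 38.4% ± 19.5 over 28 CpGs. LOC132344668, a pseudogene at 26299523 to 26301679 that the study assigns to TSPY, had 63.0% ± 21.7 and 52.7% ± 18.7 over 82 CpGs. The nearest of the genes to a dip, LOC132344668, lay 33322 bp from the first dip, and the others lay 125392 bp and 130161 bp from theirs. In the gene table used here the core, its shoulder and the other dips thus held no gene.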

How the data were processed

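For PacBio, the authors predicted CpG methylation on HiFi reads with Primrose, aligned them with pbmm2 and summarised each CpG with aligned_bam_to_cpg_scores. Per the file's values, the deposited PacBio file holds a score in percent, the read count, and model-based estimated counts of reads with and without the modification. For ONT, the authors used Dorado for calling, Winnowmap for alignment and modbam2bed for summary, and the deposited ONT file holds a percent per strand without a read count. The PacBio file runs in the reverse direction of the ONT file, and both were placed in the direction of the assembly, where both ONT rows were found for 100% of CpGs on PacBio. The study describes setting missing PacBio values to 0 after calling. No deposited PacBio score is 0, and whether the step was applied to ONT is not stated.

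Unweighted means were taken over 5 kb bins that held 5 or more CpGs. A minimum of 10 PacBio reads was set for both platforms, which left out 416 CpGs of the chromosome and none of the stretch, and 448413 reads over CpGs lay behind the stretch. Gene ends took in the CpGs within 1 kb of either end. Genes and dips were named by a rule, namely every gene overlapping the stretch, every dip, the lowest and highest bin per platform and the longest run below 20%. Family names were taken from the study's gene list at identical coordinates. The rules, the members and the lists were chosen with earlier results of these data known, and the search for copies, in the stretch and in the other windows, was added after the profile was seen. With 1 library per platform no test was run. The calling of dips and copies was tested on simulated data. The simulated levels did not depend on CpG spacing, as the measured levels did. The software was Python (3.11.15) with pandas (2.3.3), numpy (2.4.6) and matplotlib (3.10.9).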

Additional observations from a re-analysis of the deposited data

How the results depend on the processing

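Settings were compared as values, since no test was run, and a level counted as moved when it left the 95% interval for a share of that many CpGs, a count or length when it changed by more than 1.5 times, and an edge when it shifted by more than 5 kb. By these limits 98 of 126 recomputed values of the main results kept their level, and 28 moved. Some of the 98 could not move. The minimum of 4 or 20 reads removed no CpG of the stretch. Leaving out depths below the 5th or above the 95th percentile of the chromosome removed none either. The number and total length of dips depended most on the rule. On PacBio there were 3 dips of 176 kb in bins of 2 kb, 3 of 140 kb with a factor of 0.4, 10 of 575 kb with a factor of 0.6, 11 of 405 kb with runs of at least 2 bins, and 3 dips with runs of at least 8. On ONT the total was 80 kb and the longest dip 50 kb with a factor of 0.4, there were 4 dips of 275 kb with a factor of 0.6, 6 of 225 kb with runs of at least 2 bins and 1 dip with runs of at least 8, and the longest dip was 54 kb in bins of 2 kb. A threshold from the pseudoautosomal region gave 5 ONT dips of 320 kb, the lower-position strand row alone 1 dip, and the higher-position row alone 4 dips of 240 kb. Without CpGs that had an ONT row at 0, the mean level of the stretch was 44.6% on PacBio and 37.02% on ONT, and the share of CpGs below 20% was 23.5% and 27.1%. That share was 31.1% with the lower-position ONT row alone, and the difference between platforms was -7.04 points with the higher-position row. The fitted left edge of the core did not move, and with the search within 10 kb the right edge moved by less than 5 kb, to 26550220 on PacBio and 26550501 on ONT. With words of 4 or 8 spacings, chosen after seeing the data, the core differed from its copies elsewhere by -25.5 and -27.5 points on PacBio and by -21.1 and -22.5 points on ONT. The minimum of 4 or 20 reads left all members in place. No paired analysis was possible because each platform has 1 library, and ONT depth is unknown.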
